A study of Homo sapiens with 6 samples.

Results

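The vacuolar H+-ATPase (V-ATPase) and lysosomal genes examined here are 41 of the 19845 gene rows in an RNA-seq count table of Molm13-Cas9 cells, and they were found by their gene symbols. Among them are 17 V-ATPase genes, namely 7 of the V0 sector, 8 of the V1 sector and 2 accessory subunits, together with 21 genes of lysosomal proteins and the 3 MiT/TFE transcription factors TFEB, TFE3 and MITF. ATP6V0D2 was selected on its measured rise in the same contrast, so its values are given as a description without a test, and counts of members are over the other 40.

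Molm13 is a human acute myeloid leukemia line with a rearranged MLL gene. All 6 libraries came from Molm13 cells that stably carry the Cas9 nuclease, received a guide in the lentiviral vector ipUSEPR and were selected in puromycin, so these features are common to both groups. The control group, sgCtrl, has 3 libraries and the sgCOX4I1 group, whose guides target the Complex IV subunit gene COX4I1, has 3 libraries, each library with its own guide sequence. The comparison asks what the lysosomal and V-ATPase genes did in cells that received a COX4I1 guide. Libraries are called by group and guide number, and since nothing states more than 1 culture per guide, p-values measure the spread between cultures with different guides.

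The V-ATPase is a rotary proton pump. Its V1 sector hydrolyses ATP in the cytosol and drives the membrane ring of the V0 sector, which carries protons into lysosomes and endosomes. The acid interior activates cathepsins, glycosidases and lipases, while heavily glycosylated membrane proteins such as LAMP1 and LAMP2 line the organelle. TFEB, TFE3 and MITF are related factors that bind E-box elements in promoters of lysosomal genes and are regulated to a large extent by their movement between the lysosome, the cytosol and the nucleus. ATP6V0D2 is the isoform of the V0 subunit d known from osteoclasts and macrophages, whereas ATP6V0D1 is the isoform found in most cells.

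Because promoters of this family are known for the E-box, sequences before the annotated starts are shown first for 6 members. RefSeq promoters of build GRCh38.p14, from 250 bases before to 50 bases after the start, were at hand for 30 of the 41 members. The E-box searched was CACGTG, which reads the same on both strands, and the longer CLEAR element searched was that E-box with GT directly before it and AC directly after it, also its own reverse complement. Printed stretches run 5′ to 3′ on the strand of the gene, were trimmed to bases in no annotated exon, and have each E-box in capitals. Both motifs and the 6 members were chosen after values had been seen. LAMP1 and MCOLN1, a lysosomal calcium channel, show repeated E-boxes, and the aspartic protease gene CTSD and ATP6V0D1 show 1 each. SCARB2, a member that rose, and GPNMB show no CACGTG. E-boxes with other middle letters are not marked or counted, and both of these stretches hold the letters cacatg.
LAMP1, chr13:113297039-113297238, plus strand: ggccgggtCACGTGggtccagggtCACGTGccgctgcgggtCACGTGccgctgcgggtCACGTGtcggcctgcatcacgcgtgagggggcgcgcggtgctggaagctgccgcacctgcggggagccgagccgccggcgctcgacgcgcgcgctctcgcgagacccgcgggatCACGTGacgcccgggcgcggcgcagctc
MCOLN1, chr19:7522424-7522623, plus strand: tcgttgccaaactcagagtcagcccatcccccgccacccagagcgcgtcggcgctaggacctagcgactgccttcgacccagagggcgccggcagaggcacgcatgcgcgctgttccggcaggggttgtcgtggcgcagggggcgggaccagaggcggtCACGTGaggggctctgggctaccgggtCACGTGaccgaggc
CTSD, chr11:1763965-1764164, minus strand: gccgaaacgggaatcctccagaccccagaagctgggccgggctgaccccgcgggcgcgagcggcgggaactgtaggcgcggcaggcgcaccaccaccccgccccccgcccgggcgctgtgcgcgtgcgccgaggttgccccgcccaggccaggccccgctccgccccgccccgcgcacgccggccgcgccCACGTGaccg
ATP6V0D1, chr16:67481182-67481313, minus strand: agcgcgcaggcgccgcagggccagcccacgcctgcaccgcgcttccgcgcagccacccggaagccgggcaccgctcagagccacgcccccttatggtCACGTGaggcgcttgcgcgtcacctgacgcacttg
SCARB2, chr4:76213877-76214039, minus strand: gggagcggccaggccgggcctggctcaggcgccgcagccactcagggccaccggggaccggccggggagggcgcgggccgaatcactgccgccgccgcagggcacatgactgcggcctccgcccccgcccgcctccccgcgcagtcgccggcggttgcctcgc
GPNMB, chr7:23246525-23246696, plus strand: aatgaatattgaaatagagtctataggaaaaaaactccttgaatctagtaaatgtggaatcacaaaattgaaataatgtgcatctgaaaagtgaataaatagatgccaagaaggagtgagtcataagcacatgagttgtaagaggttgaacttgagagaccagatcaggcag

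In the full promoter window of 300 bases, 9 of the 30 members with a promoter, or 30%, held at least 1 E-box. The share was 13.1% of the 9251 tested genes with a promoter in the table and 8.77% of all 27305 genes there. The CLEAR element was in 3 members, ATP6V1G1, MCOLN1 and GAA, or 10%, against 0.94% of tested genes and 0.421% of all genes. LAMP1 held 6 E-boxes, the most of any member, and the plot of E-box positions shows where they lie. The 9 members with an E-box had a median log2 fold change of 0.17 and none was called. The 21 members without CACGTG had a median of 0.12 with 3 called, and other forms of the E-box were not counted. A match of letters is a description of the window and not a measured binding site.

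**Figure D1:**
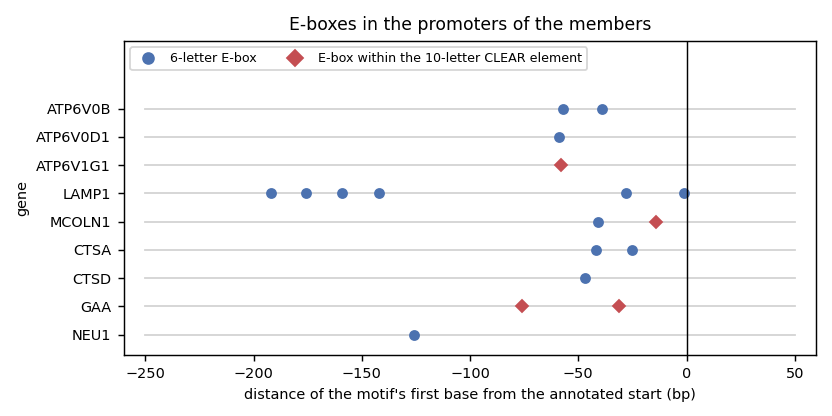
Position of the first base of each E-box relative to the annotated start, for the 9 members whose promoter holds one. Grey lines mark the window searched, blue circles an E-box alone and red diamonds an E-box within a CLEAR element. LAMP1 has 6, of which 4 lie between 192 and 142 bases before the start, whereas ATP6V1G1, MCOLN1 and GAA carry the longer element.

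Libraries held between 17241014 and 30861943 counts in total, and the factors of edgeR's TMM normalization (trimmed mean of M values) were between 0.987 and 1.01. Levels are given as CPM, counts scaled to a common library size after TMM. COX4I1 mRNA was 26.7%, 76.7% and 27.0% of the sgCtrl mean in sgCOX4I1 #1, #2 and #3, so the guide of library #2 left most of the transcript, and an edited transcript need not tell how much protein was lost. All 10 markers of MLL-rearranged myeloid leukemia, such as CD33, FLT3 and HOXA9, were detected in every library. Markers of T cells, B cells, erythroid cells, platelets, epithelium and liver had at most 5 counts in any library, and the fibroblast marker COL1A1 had 4 to 21. In bulk RNA, fewer cells of a type and less RNA per cell cannot be told apart.

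ATP6V0D2 was the least abundant of the 41 genes in sgCtrl libraries on a scale of CPM per kilobase of transcript, at 0.190 against 41.1 for ATP6V0D1. Its counts were 5, 9 and 12 in sgCtrl #1, #2 and #3 and 25, 38 and 53 in sgCOX4I1 #1, #2 and #3. As CPM these were 0.272, 0.489 and 0.590 against 1.11, 2.21 and 1.69. All 3 sgCOX4I1 libraries were higher than all 3 sgCtrl libraries, with sgCtrl #1 lowest and sgCOX4I1 #2 highest. The means were 0.450 ± 0.162 and 1.67 ± 0.548 CPM (SD, n = 3 each), a log2 fold change of 1.85 with a standard error of 0.41. Counting error alone is wide at this depth, since the exact 95% Poisson interval of the highest sgCtrl library, 0.305 to 1.03 CPM, overlapped that of the lowest sgCOX4I1 library, 0.721 to 1.64 CPM. The gene passed the filter on low counts through the sgCOX4I1 libraries, where it was high. It lies on the plus strand at chr8:85987323-86154225 in GRCh38 with GENCODE 44 annotation.

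ATP6V0D1, the isoform of subunit d in most cells, remained the main source of this subunit's mRNA. Per kilobase, ATP6V0D2 made up 0.323%, 0.488% and 0.542% of the summed level of both isoforms in the sgCtrl libraries and 1.18%, 1.52% and 1.38% in the sgCOX4I1 libraries. ATP6V0D1 itself was 58.0, 68.7 and 74.7 CPM in sgCtrl against 64.4, 98.9 and 83.6 CPM in sgCOX4I1. These groups overlapped, since sgCOX4I1 #1 lay among the sgCtrl libraries. The log2 fold change was 0.29 (SE 0.13, adjusted p = 0.276 by edgeR's quasi-likelihood test).

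Among the other 40 members, the quasi-likelihood test of edgeR, adjusted over the 11861 genes tested, called 4 higher and 0 lower in sgCOX4I1 libraries at an adjusted p under 0.05. All 41 members passed the filter on low counts. The 4 genes were CTSL, SCARB2, LIPA and PSAP. They are 10% of the 40, where 1.06% of all genes tested were called higher, and 1.02% were called lower. None of the 40 also changed at least 2-fold, where 0.202% of all genes tested did. Before adjustment 18 members, or 45%, were higher at a p under 0.05 against 8.9% of all genes, and 0 were lower against 8.41%. DESeq2 and limma-voom likewise called 0 members lower.

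CTSL encodes cathepsin L, a cysteine endopeptidase of the lysosome. Its levels were 26.6, 24.1 and 31.5 CPM in sgCtrl #1, #2 and #3, whereas sgCOX4I1 #1, #2 and #3 had 39.7, 48.2 and 45.9 CPM. The lowest sgCOX4I1 library was above the highest sgCtrl library, with sgCOX4I1 #1 and sgCtrl #3 nearest to each other. The means of 27.4 ± 3.76 and 44.6 ± 4.39 CPM (SD, n = 3 each) gave a log2 fold change of 0.70 (SE 0.11, adjusted p = 0.00622 by edgeR), the smallest adjusted p of the 40. CTSL lies at chr9:87724051-87731469 on the plus strand, and 6 pseudogenes of it are annotated, so some of its reads could have been split.

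SCARB2 encodes LIMP-2, a membrane protein that carries glucocerebrosidase to the lysosome. It was measured at 19.3, 17.7 and 20.4 CPM in the sgCtrl libraries and at 25.8, 30.6 and 31.4 CPM in the sgCOX4I1 libraries. The groups did not overlap, and sgCOX4I1 #1 was again the lowest of its group. From 19.1 ± 1.35 to 29.3 ± 3.04 CPM (SD, n = 3 each), the log2 fold change was 0.61 (SE 0.11, adjusted p = 0.0129 by edgeR). Its gene spans chr4:76158737-76234536 on the minus strand.

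LIPA encodes lysosomal acid lipase, which breaks down cholesteryl esters and triglycerides. In sgCtrl libraries it stood at 135, 139 and 178 CPM, and in sgCOX4I1 libraries at 188, 263 and 237 CPM. The groups were separated by a narrow margin, between sgCtrl #3 and sgCOX4I1 #1. Its mean rose from 151 ± 23.8 to 229 ± 37.7 CPM (SD, n = 3 each), a log2 fold change of 0.61 (SE 0.12, adjusted p = 0.0257 by edgeR). It is annotated at chr10:89213569-89414557 on the minus strand.

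PSAP encodes prosaposin, the precursor of the saposins that assist sphingolipid breakdown, and it was the most abundant of the 41 genes per kilobase. Its levels were 660, 779 and 958.9 CPM in sgCtrl against 959.4, 1651 and 1360 CPM in sgCOX4I1, which leaves sgCtrl #3 and sgCOX4I1 #1 almost equal. The log2 fold change was 0.73 (SE 0.17, adjusted p = 0.0395 by edgeR), with means of 799 ± 151 and 1323 ± 347 CPM (SD, n = 3 each). DESeq2 did not call it (adjusted p = 0.109). PSAP lies at chr10:71816298-71851251 on the minus strand. The plot of levels by library shows that its gap between groups is the narrowest of the 4.

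**Figure D2:**
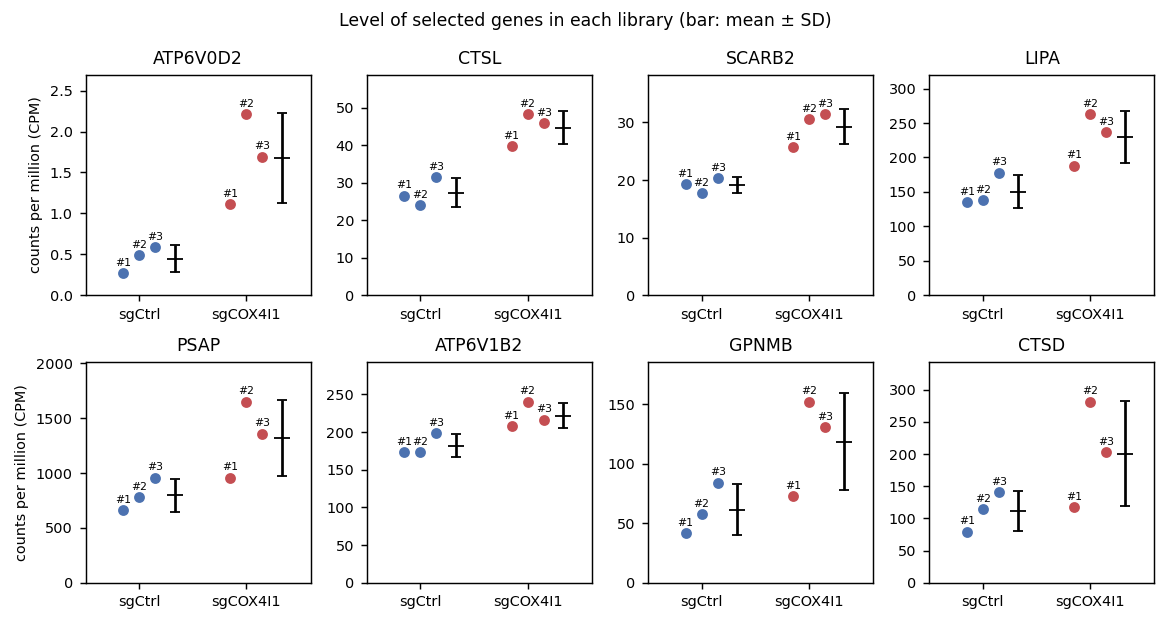
CPM of 8 members in each library, with sgCtrl in blue and sgCOX4I1 in red, the guide number over each point, and the mean ± SD beside each group (n = 3). CTSL, SCARB2, LIPA, PSAP and ATP6V1B2 do not overlap between groups, ATP6V0D2 was selected on its rise, and in GPNMB and CTSD the sgCOX4I1 #1 library lies among the sgCtrl libraries.

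These calls rested on few libraries. Without sgCtrl #2 or without sgCOX4I1 #2, 0 of the 40 members were called, and without sgCOX4I1 #3 CTSL alone was, while the calls over all genes went from 247 to 24, 51 and 89. The log2 fold changes themselves moved less, from 0.62 to 0.82 for CTSL, 0.56 to 0.70 for SCARB2, 0.50 to 0.75 for LIPA and 0.54 to 0.91 for PSAP over the 6 fits that each left out 1 library.

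Without regard to the threshold, 35 of the 40 members, or 87.5%, had a log2 fold change above 0, where 49.4% of all genes tested did. Their median was 0.19 against -0.0023 over all genes. Groups did not overlap for 11 members, or 27.5%, all with sgCOX4I1 higher, against 11.2% of all genes tested, and 0 members were separated the other way, against 10.4%. With 3 libraries against 3, an exact permutation test of a single gene cannot give a two-sided p below 0.1.

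All 21 lysosomal genes had log2 fold changes above 0, with a median of 0.25 and a range from 0.01 to 0.95, and 4 of them were called. Of the 16 V-ATPase genes other than ATP6V0D2, 13 were above 0, with a median of 0.16 and a range from -0.26 to 0.29, and 0 passed the test. The 4 calls are 19% of the 21, where 1.06% of all genes tested were called higher. At an unadjusted p under 0.05 by edgeR, 12 lysosomal genes, or 57.1%, and 6 V-ATPase genes, or 37.5%, were higher. The share over all genes tested was 8.9%. The difference between these groups of genes was not tested. The cumulative plot shows both curves to the right of all genes tested.

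**Figure D3:**
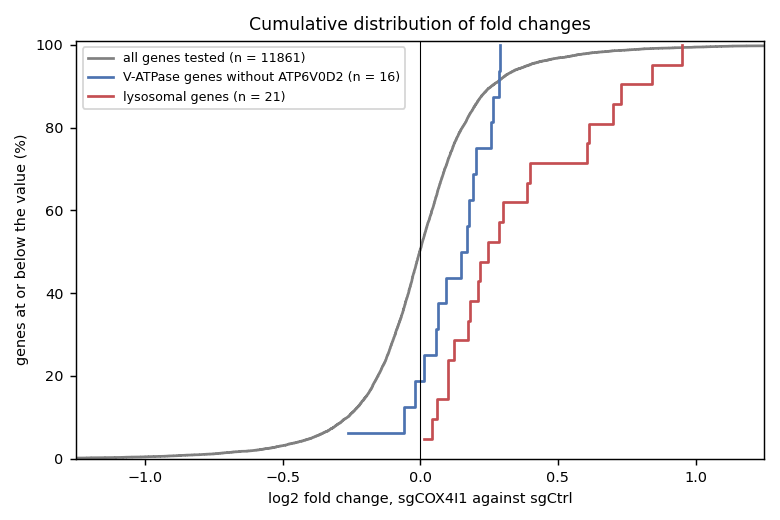
Cumulative share of genes, in percent, against the log2 fold change of sgCOX4I1 over sgCtrl, for all 11861 genes tested (grey), 16 V-ATPase genes without ATP6V0D2 (blue) and 21 lysosomal genes (red). The lysosomal curve starts above 0 and reaches 0.95, whereas the V-ATPase curve runs from -0.26 to 0.29.

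In the V0 sector, which forms the proton-conducting ring and its stalk, 4 of the 6 members other than ATP6V0D2 were above 0 and their median was 0.04. ATP6V0C, the proteolipid of the ring, had the lowest log2 fold change of the members, -0.26 (SE 0.41, adjusted p = 0.794 by edgeR). Its level was only 0.490, 0.760 and 0.933 CPM in sgCtrl against 0.579, 0.465 and 0.736 CPM in sgCOX4I1, with overlapping groups. In the annotation, 98.8% of its transcript is shared with other genes on the same strand, and 4 pseudogenes of it exist. Its reads could therefore have been split or discarded, and its values are uncertain.

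In the V1 sector, whose A and B subunits hold the sites of ATP hydrolysis, 7 of 8 members were above 0, with a median of 0.17. Groups did not overlap for 4 of the 8, or 50%, all with sgCOX4I1 higher, against 11.2% of all genes tested. None of the 8 was called. ATP6V1B2, the B subunit among the members, had the smallest adjusted p of the 8. It was 173.1, 173.0 and 199 CPM in sgCtrl against 208, 240 and 217 CPM in sgCOX4I1. Every sgCOX4I1 library was above every sgCtrl library, but the margin over sgCtrl #3 was small. The log2 fold change was 0.29 (SE 0.08, adjusted p = 0.0950 by edgeR). ATP6V1A, ATP6V1C1 and ATP6V1F were the others without overlap, at 0.26, 0.17 and 0.18 on the log2 scale. ATP6V1D, a subunit of the central rotor, was the lowest at -0.06 (SE 0.14). The accessory subunits ATP6AP1 and ATP6AP2, which take part in assembly of the pump, were at 0.19 (SE 0.09) and 0.09 (SE 0.08).

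Among the 5 membrane proteins, log2 fold changes ran from 0.01 for MCOLN1 to 0.95 for GPNMB. GPNMB, a glycoprotein of lysosomes and melanosomes that is high in lipid-laden macrophages, was 41.8, 57.5 and 84.2 CPM in sgCtrl against 73.0, 152 and 131 CPM in sgCOX4I1. The groups overlapped, because sgCOX4I1 #1 was below sgCtrl #3. The fold change had a standard error of 0.24 and an adjusted p of 0.0590 by edgeR. MCOLN1, with its E-boxes printed at the start, was at 35.1 ± 3.92 CPM in sgCtrl against 35.5 ± 4.90 CPM in sgCOX4I1 (SD, n = 3 each). LAMP1 and LAMP2, the main proteins of the lysosomal membrane, were at 0.18 (SE 0.09) and 0.21 (SE 0.07), and of this pair only in LAMP2 were the groups apart.

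All 7 cathepsins among the members were above 0, with a median of 0.29. CTSD, the aspartic protease cathepsin D, had the highest value, 0.84 (SE 0.24, adjusted p = 0.0915 by edgeR). It was 79.6, 115 and 141 CPM in sgCtrl against 118, 281 and 202 CPM in sgCOX4I1. Again sgCOX4I1 #1 lay within the range of the sgCtrl libraries, while the other two of its group were above it. In the annotation 62.1% of the CTSD transcript is shared with a transcript that reads through from a neighbour, so its counts may be incomplete. CTSZ, a carboxypeptidase, was lowest of these 7 at 0.10 (SE 0.09). Among lysosomal cathepsins tested outside the members, CTSC and CTSO were above 0, at 0.20 and 0.32. CTSK and CTSV were below 0, at -0.25 (SE 0.13) and -0.21 (SE 0.51).

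The 6 glycosidases and LIPA ran from 0.04 for NEU1, the sialidase, to 0.61 for LIPA, with a median of 0.22. GLB1, the beta-galactosidase, was 26.8, 30.5 and 24.9 CPM in sgCtrl against 32.7, 36.0 and 32.6 CPM in sgCOX4I1. Its groups did not overlap, with a log2 fold change of 0.30 (SE 0.10, adjusted p = 0.136 by edgeR). HEXA, a subunit of beta-hexosaminidase, was the other glycosidase without overlap, at 0.22 (SE 0.10). GRN, which encodes progranulin and is like PSAP a secreted and lysosomal precursor, was 357, 413 and 443 CPM in sgCtrl against 435, 625 and 541 CPM in sgCOX4I1. Its sgCOX4I1 #1 library was below sgCtrl #3, and the log2 fold change of 0.40 (SE 0.12) had an adjusted p of 0.0979 by edgeR.

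**Figure D4:**
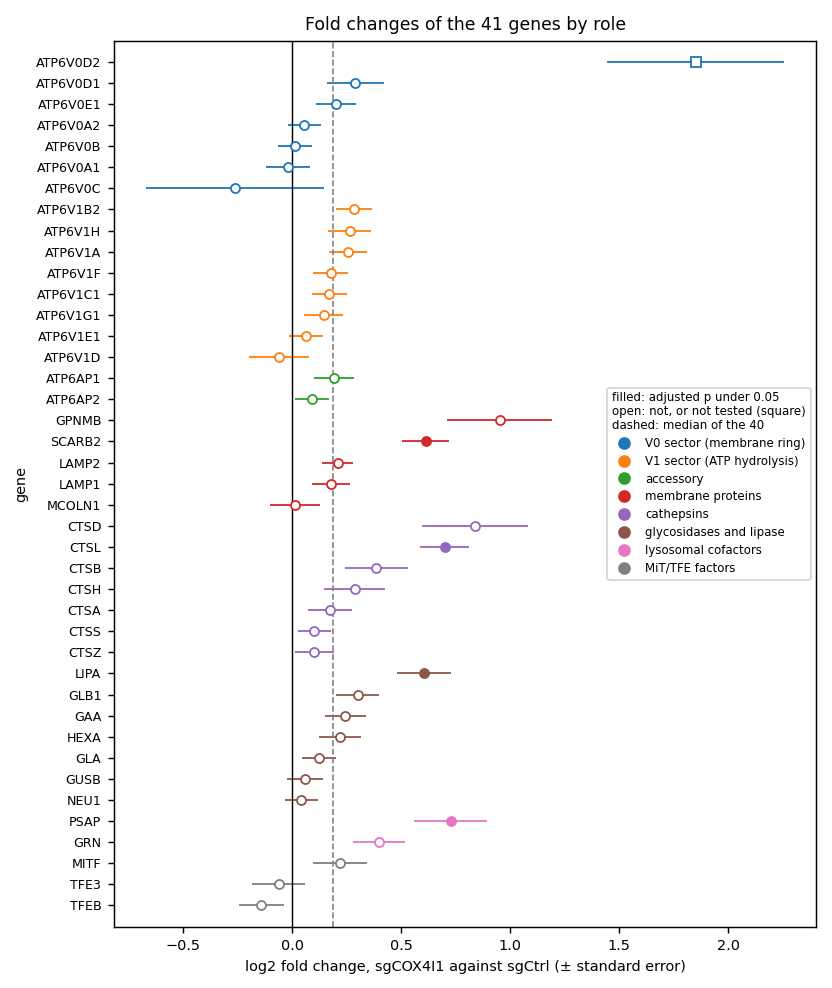
Log2 fold change of sgCOX4I1 over sgCtrl with its standard error for the 41 genes, coloured by role. Filled circles are the 4 genes with an adjusted p under 0.05, the open square is ATP6V0D2, which was selected on its rise, and the dashed line is the median of the other 40, 0.19. Values below 0 are those of ATP6V0A1, ATP6V0C, ATP6V1D, TFE3 and TFEB.

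The MiT/TFE factors did not pass the test in either direction. TFEB was 48.7, 55.8 and 45.3 CPM in sgCtrl against 47.9, 48.5 and 39.6 CPM in sgCOX4I1, a log2 fold change of -0.14 (SE 0.10, adjusted p = 0.516 by edgeR). TFE3 was 35.5, 43.7 and 48.3 CPM in sgCtrl against 35.2, 46.6 and 40.8 CPM in sgCOX4I1, or -0.06 (SE 0.12, adjusted p = 0.843). The groups of both genes overlapped. MITF was 13.4, 13.7 and 14.9 CPM in sgCtrl against 14.1, 18.3 and 16.8 CPM in sgCOX4I1, or 0.22 (SE 0.12, adjusted p = 0.389), and its highest libraries were sgCOX4I1 #2 and #3. These are mRNA levels, and the activity or location of the factors was not measured.

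The members varied between libraries within each group. Over the 40, the median log2 ratio to the sgCtrl mean was -0.05, -0.02 and 0.09 in sgCtrl #1, #2 and #3 and 0.08, 0.29 and 0.17 in sgCOX4I1 #1, #2 and #3. The sgCtrl #3 and sgCOX4I1 #1 libraries were thus level in this median. The sgCOX4I1 #2 library was highest of all 6 libraries for 26 of the 40 members, and sgCOX4I1 #1 was lowest of its group for 27. The library with the most members at their peak, sgCOX4I1 #2, was also the one that kept 76.7% of COX4I1 mRNA. Over all genes tested the medians of the 6 libraries lay between -0.0055 and 0.0044.

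**Figure D5:**
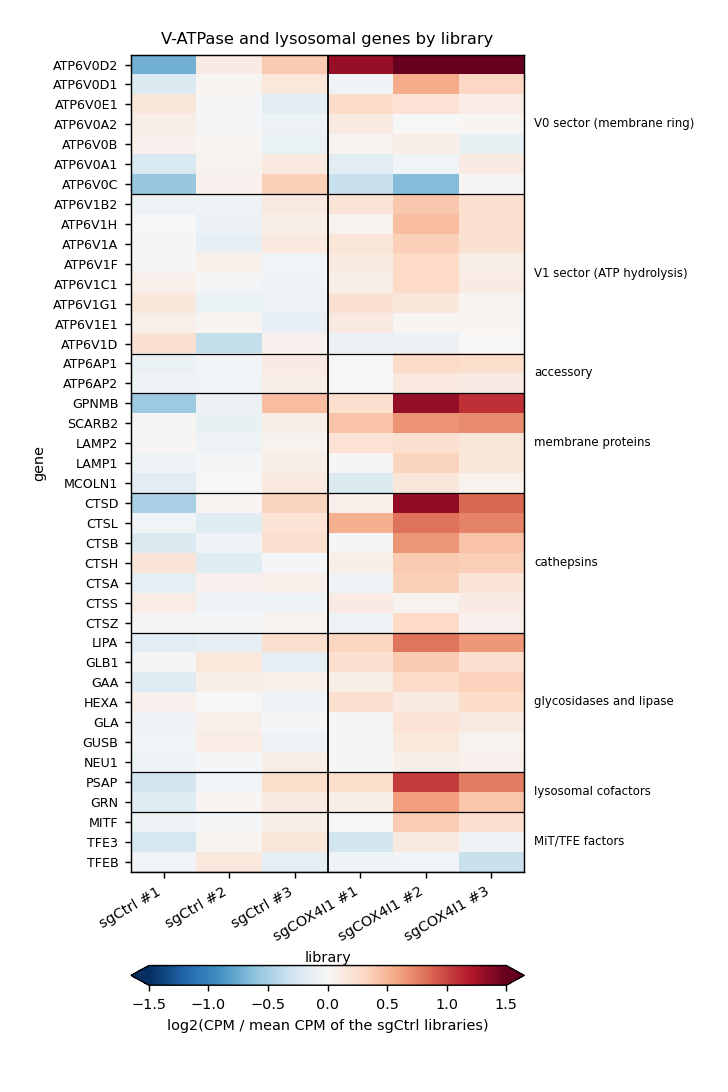
Log2 ratio of each library's CPM to the sgCtrl mean for the 41 genes (rows, by role) in the 6 libraries (columns), red above and blue below that mean, with colours ending at ±1.5. The darkest columns are sgCOX4I1 #2 and #3, with medians of 0.29 and 0.17 over the 40 genes. The medians of sgCtrl #3 and sgCOX4I1 #1 are close, at 0.09 and 0.08, but single genes differ in both directions. Examples are CTSL, at 0.20 and 0.53, and ATP6V0D1, at 0.15 and -0.06.

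Other genes of the same organelle were read from lists written with earlier results of these data known. The other lysosomal hydrolases and cofactors had 22 of 32 tested genes above 0, with a median of 0.13, and 5 rose, namely DNASE2, PPT1, FUCA1, ASAH1 and ACP5. DNASE2, the acid endonuclease of lysosomes, was 38.4, 47.7 and 48.0 CPM in sgCtrl against 57.6, 83.5 and 73.9 CPM in sgCOX4I1, with no overlap and a log2 fold change of 0.68 (SE 0.12, adjusted p = 0.0154 by edgeR). The values of PPT1, a thioesterase, and ASAH1, acid ceramidase, were 0.36 (SE 0.08) and 0.48 (SE 0.11). FUCA1, a fucosidase, and ACP5, the tartrate-resistant phosphatase, were at 0.51 (SE 0.11) and 0.85 (SE 0.20). The 5 genes called are 15.6% of the 32, where 1.06% of all genes tested were called higher. None of the 32 was called lower, against 1.02%. Groups did not overlap with sgCOX4I1 higher for 10 of the 32, or 31.2%, against 11.2% of all genes tested. Of the 10 genes below 0, 1 had groups that did not overlap, where 10.4% of all genes tested were apart with sgCOX4I1 lower. This was GALNS, at -0.21 (SE 0.09, adjusted p = 0.248 by edgeR). All 5 calls were lost without sgCtrl #2, where the adjusted p by edgeR ran from 0.120 for DNASE2 to 0.237 for ACP5, and without sgCOX4I1 #2, where it reached 0.203 for ACP5. DESeq2, limma-voom and library size without TMM did not call ACP5 either, with adjusted p values of 0.121, 0.0597 and 0.0502.

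Genes that assemble or regulate the V-ATPase were all above 0, 10 of 10 tested, and NCOA7, which binds the pump, rose by a log2 fold change of 0.40 (SE 0.09, adjusted p = 0.0353 by edgeR). Its call was lost without sgCtrl #2 (adjusted p = 0.160 by edgeR) and without sgCOX4I1 #1, #2 or #3, with adjusted p values of 0.0852, 0.114 and 0.0826. The V-ATPase isoforms outside the members were below 0 in 4 of 4 tested genes and 0 were called. TCIRG1, the a3 isoform of V0 known from osteoclasts, had the smallest adjusted p of these, 0.208 by edgeR, at 547 ± 50.9 CPM in sgCtrl against 471 ± 25.5 CPM in sgCOX4I1 (SD, n = 3 each). Groups did not overlap for TCIRG1 and ATP6V1E2, 2 of the 4, both lower in sgCOX4I1, where 10.4% of all genes tested were. For TCIRG1 the margin was narrow, from 500 CPM in sgCtrl #1 to 498 CPM in sgCOX4I1 #3. Groups overlapped for ATP6V1C2, whose log2 fold change of -0.0023 (SE 0.19) was close to 0, and for RNASEK. The mean of RNASEK was only 3.65 CPM in sgCtrl against 3.07 CPM in sgCOX4I1. In the annotation 98.2% of the RNASEK transcript is shared with other genes on the same strand, so its values are uncertain. The member isoforms of subunit a, ATP6V0A1 and ATP6V0A2, had sgCtrl means of 64.1 and 85.4 CPM.

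Of the 28 other lysosomal membrane proteins and transporters, 19 were above 0 with a median of 0.06 and 0 were called, with OSTM1, a partner of a chloride transporter, at the smallest adjusted p of 0.0871. In the mannose 6-phosphate sorting list 8 of 10 genes were above 0 and 0 were called, with the receptor gene M6PR at 0.21 (adjusted p = 0.167). In the list for docking of mTORC1 at the lysosome 11 of 16 were above 0 and 0 were called, with FNIP2 at 0.57 (adjusted p = 0.146). The autophagy list differed in sign, with 7 of 21 genes above 0, a median of -0.08 and 0 called, and GABARAPL1, an autophagosome protein, had its smallest adjusted p, 0.107, at 0.44. All are from the same edgeR test.

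Markers of myeloid maturation were measured beside these genes, since lysosomes increase as monocytes mature. The 10 monocyte and macrophage markers summed to 240 to 356 CPM in sgCtrl against 241 to 320 CPM in sgCOX4I1. By edgeR 0 of the 9 tested were called, while 6 were above 0, with a median of 0.02. Before adjustment 2 of the 9, or 22.2%, were higher at a p under 0.05 by edgeR, against 8.9% of all genes tested. In the other direction 0 were lower, against 8.41%. The 12 osteoclast and fused macrophage markers summed to 104 to 127 CPM against 109 to 159 CPM, with CALCR at 0 in all libraries. Of the 9 tested, 6 were above 0 and 3 below, with a median of 0.05. Those below were CTSK at -0.25, OSCAR at -0.13 and TNFRSF11A at -0.34. ACP5, which the hydrolase list also holds, was the 1 called higher, or 11.1%, against 1.06% of all genes tested. Its call was lost under the alternatives named above. The 9 granulocyte precursor markers summed to 6330 to 7182 CPM against 7116 to 7794 CPM. The largest parts of these sums moved differently, so the sums give no direction for the list as a whole. Means in sgCtrl and sgCOX4I1 were 3073 and 2459 CPM for AZU1, 1590 and 2717 for LYZ, and 1066 and 1290 for ELANE. Groups were apart with sgCOX4I1 lower for 3 of the 9, MPO, AZU1 and CEBPE, against 10.4% of all genes tested. They were apart with sgCOX4I1 higher for 2, PRTN3 and CTSG, against 11.2%. Of the 9 markers, MPO, the myeloperoxidase of granules, fell from 227 ± 8.28 to 109 ± 6.57 CPM (SD, n = 3 each). Its log2 fold change was -1.06 (SE 0.07, adjusted p = 1.6e-05 by edgeR), and it was called under every alternative run. LYZ, lysozyme, had levels of 1149, 1520 and 2100 CPM in sgCtrl against 2026, 3022 and 3104 CPM in sgCOX4I1, with the same overlap of sgCtrl #3 and sgCOX4I1 #1 as GPNMB, CTSD and GRN, and a log2 fold change of 0.77 (SE 0.19, adjusted p = 0.0534 by edgeR). The part of cell maturation in the members' values was not tested.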

How the data were processed

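Raw counts for 6 directional mRNA libraries and 19845 symbols were deposited in 1 table, and no sample column was left unused. The labels name STAR 2.6.0a and edgeR on GRCh38, the column names point to HTSeq, and the methods describe Bowtie2 and RSEM instead. The use of strand in counting is not given in the sources used here.

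Counts were tested in R 4.3.3 with edgeR 4.0.16 on all genes and all 6 libraries, with TMM normalization, the expression filter (11861 genes), the quasi-likelihood test without covariates and Benjamini-Hochberg adjustment. The standard error is the absolute log2 fold change divided by the root of F. Pairs of libraries within a group differed beyond sampling noise (chi-square over its degrees of freedom, 9.43 to 23.3), so each counted as 1 replicate. Intervals cover counting error only, and 3 counts, which a count of 0 allows, are 0.0959 to 0.174 CPM in these libraries. The script was tested on simulated data.

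The members and lists were chosen with earlier results of these data known. Values by library are given for ATP6V0D2, for members with an adjusted p under 0.05, for members without overlap among the 10 smallest p, and for TFEB, TFE3 and MITF. Of the other members the highest and lowest of each role are named, and from each of 12 lists up to 5 called genes or else the one with the smallest adjusted p. Further members and markers, LYZ and GALNS among them, were named after their values were seen. For 1 list the named gene is not reported here. Alternatives were library size without TMM, no filter, at least 10 counts in every library, DESeq2 1.42.0, limma-voom (limma 3.58.1), a replicate block, and each library left out. Levels per kilobase used the MANE transcript of GENCODE 44. Sequences came from RefSeq promoters. In all, 4 strings of letters were looked at for the E-box family, and 2 were kept.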

Additional observations from a re-analysis of the deposited data

How the results depend on the processing

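Members called higher numbered 4, 4, 4 and 5 with library size without TMM, a minimum of 10 counts in each library, limma-voom and DESeq2, and 9 without a filter on low counts. DESeq2 kept 3 of the 4, without PSAP. With a replicate block 16 were called. The deviations of same-numbered libraries correlated at 0.38, -0.02 and 0.29, and 4 of 6 libraries correlated best with their own number. The labels give no shared batch for a number and 1 pair lacked the correlation, so the block stayed an alternative, and whether numbers mark shared handling was not tested. Leaving out 1 library gave 0 to 8. All genes called, 247 by edgeR, were 537 without a filter, 437 by DESeq2 and 1408 with the block. Members called lower stayed at 0 under every alternative run. Genes called at 2-fold or more, 24 in the report's fit, were 41 without a filter and 57 with the block, and 9 to 50 leaving out a library. For COX4I1 the log2 fold change of -1.21 (edgeR adjusted p = 0.0512) was -1.20 without a filter, -1.40 by limma-voom and -1.39 with the block, each past the threshold. It was not called by DESeq2 (adjusted p = 0.242), with library size without TMM (0.0598) or with a minimum of 10 counts (0.0522). Leaving out a library gave -1.90 (without sgCOX4I1 #2) to -0.95, with edgeR adjusted p from 3.37e-06 to 0.272 (without sgCtrl #2). Of 658 values under alternatives, 12 changed sign, each of a gene near 0 and each on leaving out a library. Their ranges over the 6 libraries left out in turn were -0.120 to 0.066 for ATP6V0A1, -0.031 to 0.072 for ATP6V0B, -0.207 to 0.067 for ATP6V1D, -0.072 to 0.119 for MCOLN1, -0.0030 to 0.186 for CTSZ and -0.176 to 0.045 for TFE3. The cause was not tested.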
